A study of Rattus norvegicus with 10 samples.

Results

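The regions described here are those whose nearest annotated gene codes for a microRNA. They were picked by the gene type column of the deposited table of differentially methylated regions alone, and they make up 2.32% of its 8957 regions. They belong to 129 Ensembl genes, of which 39 carry a Mir name and hold 72 regions, 83 carry only the name of an assembly contig and 7 have no name. All levels come from the arcuate nucleus of the hypothalamus (labelled Arc), which senses circulating metabolic signals and governs feeding. The tissue was taken from 10 Wistar rat offspring. The father of 5 offspring had been fed a high-fat diet (paternal high-fat), and the father of the other 5 had been fed chow (paternal chow). Mothers of both groups ate chow. Every offspring was raised on chow to postnatal day 35 and then ate a high-fat diet until tissue was taken on day 70, so the chow-sired offspring also carry a high-fat diet of their own. No mutation or transgene is part of the design. Sex, litter and sire of each offspring were not given in the sources used here. The samples are labelled as separate, but nothing says how they relate, so a p-value reflects only the spread among them, which may be partly technical. In each group 2 columns of levels have names with the same leading number, and whether such a pair shares an animal or a litter is not stated; if it does, there are 4 independent offspring per group, and the SD and p-values given for 5 may be too small. With such columns averaged first, 157 microRNA regions were higher and 47 had an unadjusted limma p under 0.05.

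Methylation was read by reduced representation bisulfite sequencing, which sequences CpG-rich restriction fragments after unmethylated cytosines have been converted. The level of a region is the percentage of methylation averaged over its CpGs in 1 animal, as the authors deposited it. Read depth was not part of the table, so the precision of a single level is unknown and the spread between animals is the error given throughout. The authors had selected the regions on these same animals, and the smallest group difference they deposited for a microRNA region was 1.0033 percentage points. No test below is therefore independent evidence of a difference. The DNA is from bulk tissue, in which a change inside cells and a change in the mix of cells cannot be told apart. Neither RNA nor protein is in the table, so the tissue could not be checked against expressed markers.

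MicroRNAs are short RNAs cut from hairpin transcripts by Drosha and then Dicer. Loaded into an Argonaute protein, a microRNA pairs through its seed, the bases just after its first one, with messenger RNAs and lowers their translation and stability. Many microRNA genes are transcribed together in clusters, lie inside other genes, or are copied from both strands of 1 locus. Dense CpG methylation at a start site generally goes with low transcription, but the nearest gene is only a position and need not be the gene a region acts on.

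Sequences are shown for the microRNAs on which the results below turn, with the seed (bases 2 to 8) in capitals. They are from RefSeq (GRCr8), in which 36 of the 39 Mir names were found by symbol and 1 by synonym. The first set shares 1 seed, that of the let-7 family, and is shown because most of its regions had lower levels after paternal high-fat diet.
rno-let-7a-5p: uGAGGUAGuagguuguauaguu
rno-let-7c-5p: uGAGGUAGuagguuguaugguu
rno-let-7i-5p: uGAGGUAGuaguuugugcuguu
The second set shows that names in the table can hide better known microRNAs. Each pair below comes from opposite strands of 1 locus, the gene named in the table first and the product of the other strand after it.
rno-miR-219b: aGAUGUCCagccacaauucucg
rno-miR-219a-2-3p: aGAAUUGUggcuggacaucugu
rno-miR-9b-3p: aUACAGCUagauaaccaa
rno-miR-9a-5p: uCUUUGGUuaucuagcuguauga
rno-miR-31b: cUAUGCCAgcaucuugccu
rno-miR-31a-5p: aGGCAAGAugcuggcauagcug
The third set holds the products of 3 genes in Hox clusters, whose regions all had higher levels, and of 1 gene whose groups did not overlap. The seeds of miR-10a and miR-10b differ here because the annotated first bases differ.
rno-miR-10a-5p: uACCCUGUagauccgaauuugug
rno-miR-10b-5p: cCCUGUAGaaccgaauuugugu
rno-miR-196c-5p: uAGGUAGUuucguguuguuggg
rno-miR-671: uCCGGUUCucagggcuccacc
The last sequence is the hairpin of Mir2964 with its 5 CpGs in capitals. Regions around it had the largest differences of any named microRNA gene. By the deposited distance they reach at most about 4 bases into the hairpin, next to the first marked CpG. Whether they include that CpG cannot be told, because the way positions were counted is not given. Over the 35 hairpins found, the number of CpGs ranged from 0 to 18 with a median of 3, against a median of 2 over all 419 rat hairpins in the RefSeq table.
Mir2964 hairpin: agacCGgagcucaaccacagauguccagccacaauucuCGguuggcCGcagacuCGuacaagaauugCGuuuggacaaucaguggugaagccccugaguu

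Across the microRNA regions, levels were mostly higher in paternal high-fat than in paternal chow offspring. The mean of the animals was higher at 157 regions and lower at 51, so 75.5% were higher, beside 71% of all 8957 regions of the table. The share was 71.2% over the 267 regions nearest to lincRNA genes and 70.8% over the 8010 nearest to protein-coding genes. The direction of the microRNA regions thus lay close to that of the whole table. The median difference was 1.69 points over the microRNA regions and 1.41 points over all regions. Single differences ran between -8.45 and 12.3 points.

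Averaged over the 203 microRNA regions measured in every animal, the level was 8.57, 10.4, 9.58, 10.2 and 8.99% in the 5 paternal high-fat offspring, against 7.9, 8.13, 8.00, 8.09 and 7.14% in the 5 paternal chow offspring. Every paternal high-fat animal lay above every paternal chow animal. The means were 9.54 ± 0.773% and 7.85 ± 0.406% (SD, n = 5 each). Over the 8838 complete regions of the table they were 7.17 ± 0.663% in paternal high-fat and 6.08 ± 0.304% in paternal chow offspring. There too the groups did not overlap, with the lowest paternal high-fat animal at 6.44% and the highest paternal chow animal at 6.43%. The microRNA regions were thus somewhat more methylated than the table as a whole in both groups. No test was made on this mean, because the regions were selected for a difference.

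**Figure D1:**
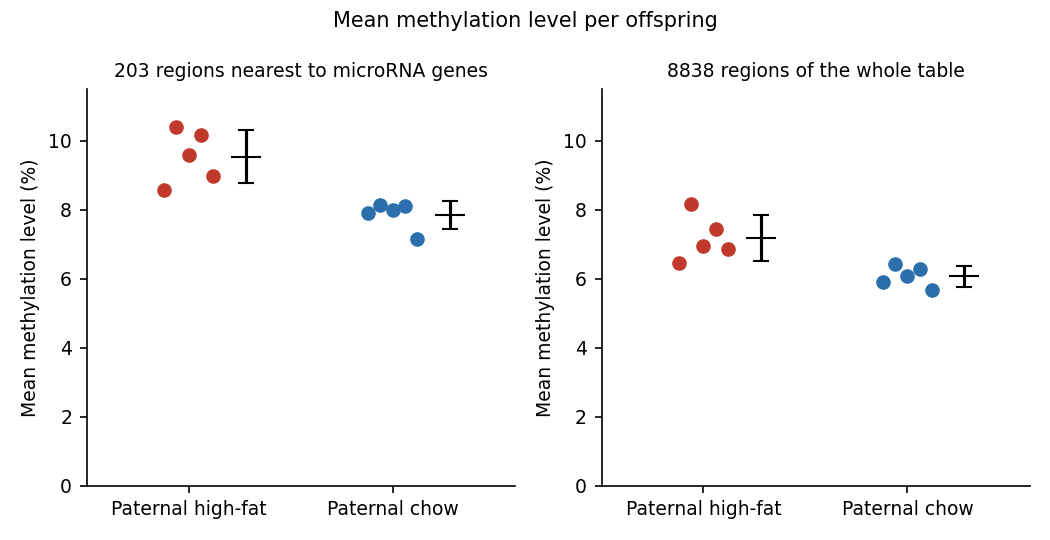
Mean methylation level (%, vertical axis from 0) per offspring over the complete regions nearest to microRNA genes and over the complete regions of the whole table, by diet of the father. Each point is 1 animal and the bar is the mean ± SD of 5; over the microRNA regions the paternal high-fat animals lie between 8.57 and 10.4% and the paternal chow animals between 7.14 and 8.13%.

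No microRNA region passed limma with Benjamini-Hochberg adjustment over all regions at 0.05, as was the case for 0% of the table; the smallest adjusted p was 0.235. Without adjustment, limma gave p under 0.05 at 37 microRNA regions that were higher and 10 that were lower, which is 17.8% and 4.81% of them, beside 16.4% and 4.52% of all regions. An exact two-sided permutation test per region over 252 arrangements gave p under 0.05 at 55 microRNA regions, 45 higher and 10 lower, or 21.6% and 4.81%, beside 19% and 5.79% of all regions. The groups did not overlap at 10 higher and 2 lower microRNA regions, or 4.81% and 0.962%, beside 3.93% and 1.22% of all regions. In the authors' deposited table, 0.848% of all regions and 0 microRNA regions had a q below 0.05. The smallest deposited q values were 0.256 at Mir3554 and 0.277 at AABR07044655.1, and all others were 1. By each of these counts the microRNA regions stood near the background of the table.

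The microRNA regions lay farther from a start than most of the table. Of these regions, 97 were annotated as intergenic (46.6%, against 19.8% of all regions), 44 as promoter (21.2% against 38.3%), 33 as transcription termination site (15.9% against 2.63%), 23 as intron and 11 as exon. A microRNA hairpin is so short that a region soon after its start is often already past its end. By the deposited distance, a Mir1247 region centred 76 bases past the start still overlapped the 82-base hairpin. It differed by -1.19 points (exact permutation p = 0.143), and the other region of that gene by 2.38 points. The median distance to the microRNA start was 5673 bases, against 378 bases over all regions, and 77 regions lay within 1000 bases of a start. This distance is not particular to microRNA genes, since the regions nearest to lincRNA genes had a median of 7832 bases, with 59.9% intergenic, 18.7% at a promoter and 4.49% at a termination site. The share with a higher level was 75.3% within 1000 bases, 83.7% between 1000 and 10000, 73.4% between 10000 and 50000 and 66.7% beyond, with no steady trend over distance; over all regions it was 70.7, 72.2, 69.2 and 73.3% in the same 4 ranges.

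**Figure D2:**
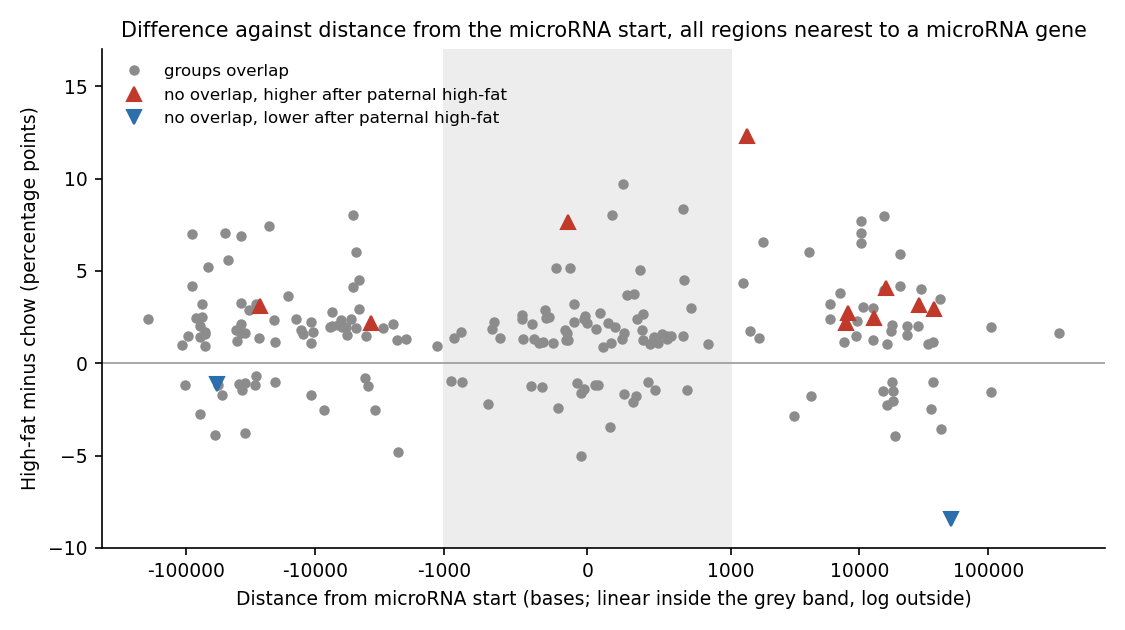
Difference in level (paternal high-fat minus paternal chow, percentage points) of every microRNA region against their distance from the microRNA start in bases, linear within 1000 bases and logarithmic outside. Triangles mark the 10 higher and 2 lower regions whose groups did not overlap; 1 of the 12 lies within 1000 bases of a start.

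The level of methylation differed among the regions more than between the groups. At 147 regions the mean of both groups was at most 5%, and over those of them measured in every animal the level averaged 2.73 ± 0.591% in paternal high-fat and 1.89 ± 0.344% in paternal chow offspring. At the other 61 regions, all complete, it averaged 25.4 ± 1.25% in paternal high-fat and 21.7 ± 0.884% in paternal chow offspring (SD, n = 5 each). Regions of intermediate level, between 20 and 80%, were higher in 20 of 22 cases, with a median difference of 6 points. Among all regions, 80.1% of the 579 intermediate regions were higher. Introns held 21 higher and 2 lower microRNA regions, or 91.3% higher, beside 71.9% of the 1704 intron regions of the table; the 23 belong to 15 genes, several with more than 1 region, and the difference between these shares was not tested.

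Among the regions whose groups did not overlap, the largest difference was at AC122625.1 (ENSRNOG00000050304), a microRNA gene with no Mir name. The region, chr6:104862095-104862337 in the coordinates of the file, whose build is not given in the sources used here, lies in exon 8 of a 13-exon transcript, 1344 bases past the microRNA start. Its levels were 49.7, 61.7, 63.4, 47.0 and 60.0% in paternal high-fat offspring, against 43.7, 43.9, 46.8, 40.4 and 45.6% in paternal chow offspring. The lowest paternal high-fat animal lay just above the highest paternal chow animal, so the groups parted by little while their means differed by 12.3 points. The means were 56.4 ± 7.49% and 44.1 ± 2.43% (SD, n = 5 each), with a limma adjusted p of 0.235. The exact permutation p of 0.00794, here and at every region without overlap, is the smallest this design can give.

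The only region of this kind at a microRNA start was that of AC119762.1 (ENSRNOG00000041875), 137 bases upstream, at chr2:187897618-187897677. It had 12.9, 14.4, 8.72, 20.6 and 12.1% in paternal high-fat offspring, against 5.37, 6.84, 6.47, 4.15 and 7.85% in paternal chow offspring. The difference was 7.62 points (limma adjusted p = 0.235; exact permutation p = 0.00794). All 3 regions of this gene were higher, by 2.44 to 7.62 points.

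Mir3554 lies on the strand opposite to Mir31, a microRNA whose locus is often lost together with a tumour suppressor in human cancers. Its region, chr5:107177841-107178009, was 28701 bases from the start and was the richest in CpGs of all microRNA regions, with 38. Levels were 4.74, 4.79, 2.12, 4.93 and 2.85% in paternal high-fat offspring, against 0.216, 0.493, 0.418, 0.509 and 2.10% in paternal chow offspring. Of the paternal chow animals 4 were under 1% and 1 was level with the lowest paternal high-fat animal to within a small margin. The means were 3.88 ± 1.31% and 0.747 ± 0.764% (SD, n = 5 each; limma adjusted p = 0.235; exact permutation p = 0.00794).

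Mir3597-2 lies opposite to Mir9-2, 1 of the genes of miR-9, which is abundant in the brain and acts in neural progenitors and neurons. At its nearer region, chr2:11876682-11876713, 8077 bases from the start, levels were 3.43, 2.40, 2.23, 4.60 and 4.61% in paternal high-fat offspring, against 1.89, 0, 0.519, 0 and 1.16% in paternal chow offspring. The difference was 2.74 points (limma adjusted p = 0.235; exact permutation p = 0.00794). Mir671 had 2.38, 2.05, 1.81, 5.15 and 4.88% in paternal high-fat offspring, against 1.11, 0.37, 0.789, 1.16 and 0.537% in paternal chow offspring. That region, chr4:7095727-7095847, lies 13048 bases from the microRNA start, in intron 2 of the 13 introns of a transcript, and held 21 CpGs. At both genes the paternal chow animals lay near the bottom of the scale.

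The remaining regions that were higher without overlap belong to genes without a Mir name, and all but 1 were intergenic. AABR07044655.1 had 1.67, 6.47, 5.55, 6.16 and 1.44% in paternal high-fat offspring, against 0, 0, 0.303, 0.345 and 0.244% in paternal chow offspring, a difference of 4.08 points. AABR07015814.1 had 3.72, 7.32, 2.94, 4.37 and 3.03% in paternal high-fat offspring, against 0.889, 1.68, 1.56, 0.558 and 1.28% in paternal chow offspring, a difference of 3.08 points. AABR07054401.1 differed by 2.91 points, with 1.39 to 6.0% in paternal high-fat and 0 to 1.29% in paternal chow offspring. In each of them the paternal high-fat animals were more spread than the paternal chow animals, none of which exceeded 1.68%. The 2 further ones, outside the rule for naming regions, were AABR07062513.2 with 2.18 points and AABR07035478.1, in an intron of the synaptic adhesion gene Elfn1, with 2.15 points. Other regions of these genes did not all go the same way. AABR07044655.1 had another at -1.50 points and AABR07035478.1 another at -0.79 points. The others of AABR07054401.1 were at -1.05 and 1.17 points, and that of AABR07015814.1 at 1.35 points.

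Lower levels without overlap were found at 2 regions. AABR07044106.1 (ENSRNOG00000060207), chr19:58072891-58073032, had 12.7, 11.2, 8.36, 13.1 and 14.6% in paternal high-fat offspring, against 21.0, 24.5, 17.8, 19.3 and 19.5% in paternal chow offspring. The highest paternal high-fat animal lay 3.15 points under the lowest paternal chow animal, the widest gap at any of the 12 regions without overlap, with means of 12 ± 2.37% and 20.4 ± 2.57% (SD, n = 5 each) and a limma adjusted p of 0.235. It lies 51579 bases from the microRNA start. At the gene ENSRNOG00000051849 the difference was -1.12 points, between 0 and 0.833% in paternal high-fat and between 0.855 and 2.39% in paternal chow offspring.

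**Figure D3:**
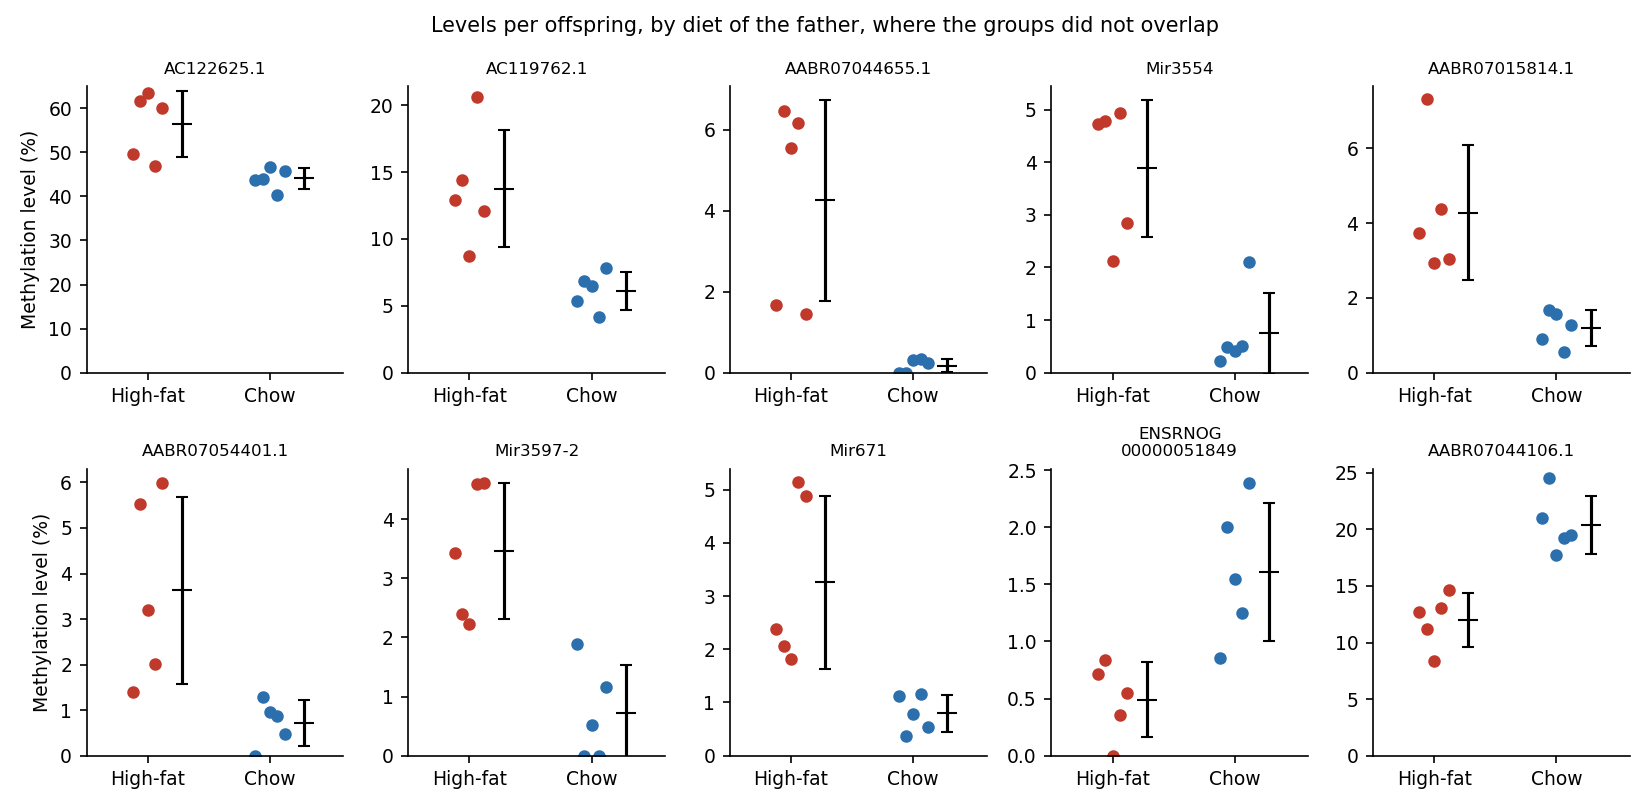
Methylation level (%) per offspring at the 8 higher and 2 lower named regions whose groups did not overlap, paternal high-fat left and paternal chow right in each panel; each panel has its own axis from 0. Points are animals and bars are mean ± SD of 5, cut at 0 where they reach below it; the differences run between -8.45 points at AABR07044106.1 and 12.3 points at AC122625.1.

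Within 1000 bases of a start, 58 regions were higher and 19 lower, and Mir2964 held 3 of the 5 largest differences that were higher. The centres of its 4 regions lie from 121 bases before to 668 bases after the start (chr3:8407180 to chr3:8408113 for the whole regions). By the deposited distance the first region reaches about 4 bases into the hairpin. Levels at the start were 33.1, 30.7, 47.1, 43.6 and 31.3% in paternal high-fat offspring, against 38.9, 29.0, 32.2, 29.4 and 30.6% in paternal chow offspring. These overlapped widely. At 175 bases they were 55.3, 48.6, 52.2, 50.2 and 47.3% in paternal high-fat offspring, against 46.4, 44.9, 47.9, 46.6 and 27.8% in paternal chow offspring. Here 4 of 5 paternal high-fat animals lay above all paternal chow animals, and the difference was 8.00 points, or 4.27 points without the low paternal chow animal. At 370 bases the means were 26.2 ± 2.34% in paternal high-fat and 21.2 ± 2.49% in paternal chow offspring, and at 668 bases 30.3 ± 10.9% and 21.9 ± 3.66% (SD, n = 5 each). All 4 regions were thus higher, by 5.02 to 8.36 points, at intermediate levels, with exact permutation p between 0.0159 and 0.198 and none past the adjusted test.

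Other large differences near a start were at genes known only by contig. AABR07063425.1, 251 bases past its start, had 13.1, 27.5, 25.0, 33.7 and 40.4% in paternal high-fat offspring, against 18.8, 14.5, 14.6, 31.7 and 11.6% in paternal chow offspring. Its difference of 9.69 points was the largest within 1000 bases, but the animals overlapped over most of their range (limma adjusted p = 0.235; exact permutation p = 0.127). The lower regions near a start were led by Mir124-3, described with the neuronal microRNAs below. AABR07011085.1 followed with a difference of -3.46 points, at 0 to 1.09% in paternal high-fat and 0.605 to 11.1% in paternal chow offspring. That difference rested on 2 paternal chow animals at 5.92 and 11.1%. AABR07019083.2 differed by -2.43 points and AABR07015531.1 by -2.12 points.

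The strand matters for the names. Of the 39 Mir genes, 9 overlap another microRNA gene on the opposite strand in GRCr8, and the table gives only 1 name of each pair. This set was drawn up after the values had been seen. The hidden partners are Mir219-2 (at Mir2964), Mir338 (at Mir3065), Mir9-2 and Mir9-3 (at Mir3597-2 and Mir3597-3), Mir31 (at Mir3554), Mir203 (at Mir3545), Mir378 (at Mir3557), Mir210 (at Mir3574) and Mir3553 (at Mir183). The mature products lie face to face: miR-219b and miR-219a-2-3p share 20 base positions, and all 19 bases of miR-31b lie opposite miR-31a-5p. A region beside such a locus is as near to 1 microRNA as to the other. Together the 9 loci held 20 regions, 16 higher and 4 lower, with a median difference of 2.18 points. Over all microRNA regions 75.5% were higher, with a median of 1.69 points. Mir2964 alone held 4 of the 20, all higher.

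The partners give several regions a different reading by tissue. miR-219 and miR-338 are known for driving the maturation of oligodendrocytes, the myelin-forming glia, and by its own names the table held 0 regions for a list of these glial microRNAs. Through the opposite strand there were 6, of which 5 were higher and 1 lower, beside 75.5% higher over all microRNA regions. At Mir3065 the region 4804 bases before the start, in exon 12 of a 15-exon transcript, averaged 62.1 ± 11.4% in paternal high-fat and 56.1 ± 9.66% in paternal chow offspring. Only 2266 bases before the start, in exon 11, the averages were 18.8 ± 2.81% and 23.6 ± 4.65% (SD, n = 5 each). So neighbouring exons of 1 transcript differed in opposite directions, neither past the test (exact permutation p = 0.373 and 0.0794). Whether the proportion of glia in the samples moved with these levels was not tested.

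The 2 miR-9 loci also went opposite ways. Both regions of Mir3597-2 were higher, by 1.48 and 2.74 points, and both regions of Mir3597-3 were lower, by -2.51 and -1.12 points, although the products are the same. The nearer region of Mir3597-3, 3397 bases before its start, had 4.90, 12.8, 8.87, 10.3 and 7.68% in paternal high-fat offspring, against 12.6, 10.1, 11.3, 12.8 and 10.3% in paternal chow offspring. The animals overlapped (exact permutation p = 0.135). Mir3557 lies opposite to Mir378, a microRNA of an intron of the coactivator gene Ppargc1b that acts on lipid metabolism in mice. It was the only gene of the list of insulin, lipid and feeding microRNAs with a region, and only by way of the opposite strand. Levels 673 bases past its start were 8.12, 18.4, 9.86, 14.4 and 10.4% in paternal high-fat offspring, against 7.01, 5.69, 7.49, 9.21 and 9.44% in paternal chow offspring. Of the paternal high-fat animals 4 lay above all paternal chow animals, and the difference was 4.48 points (limma adjusted p = 0.235; exact permutation p = 0.0397).

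Beside Mir3545, opposite to the skin microRNA gene Mir203, a region 18 bases before the start averaged 7.09 ± 1.48% in paternal high-fat and 4.51 ± 1.75% in paternal chow offspring (SD, n = 5 each; exact permutation p = 0.0397). Mir3574, opposite to Mir210, which is induced by low oxygen, had 2 adjoining regions that were higher by 1.82 and 1.10 points. Mir183, of the sensory organ cluster with Mir96 and Mir182, had 3 higher and 1 lower region, between -1.24 and 2.08 points. None of these passed the adjusted limma test.

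**Figure D4:**
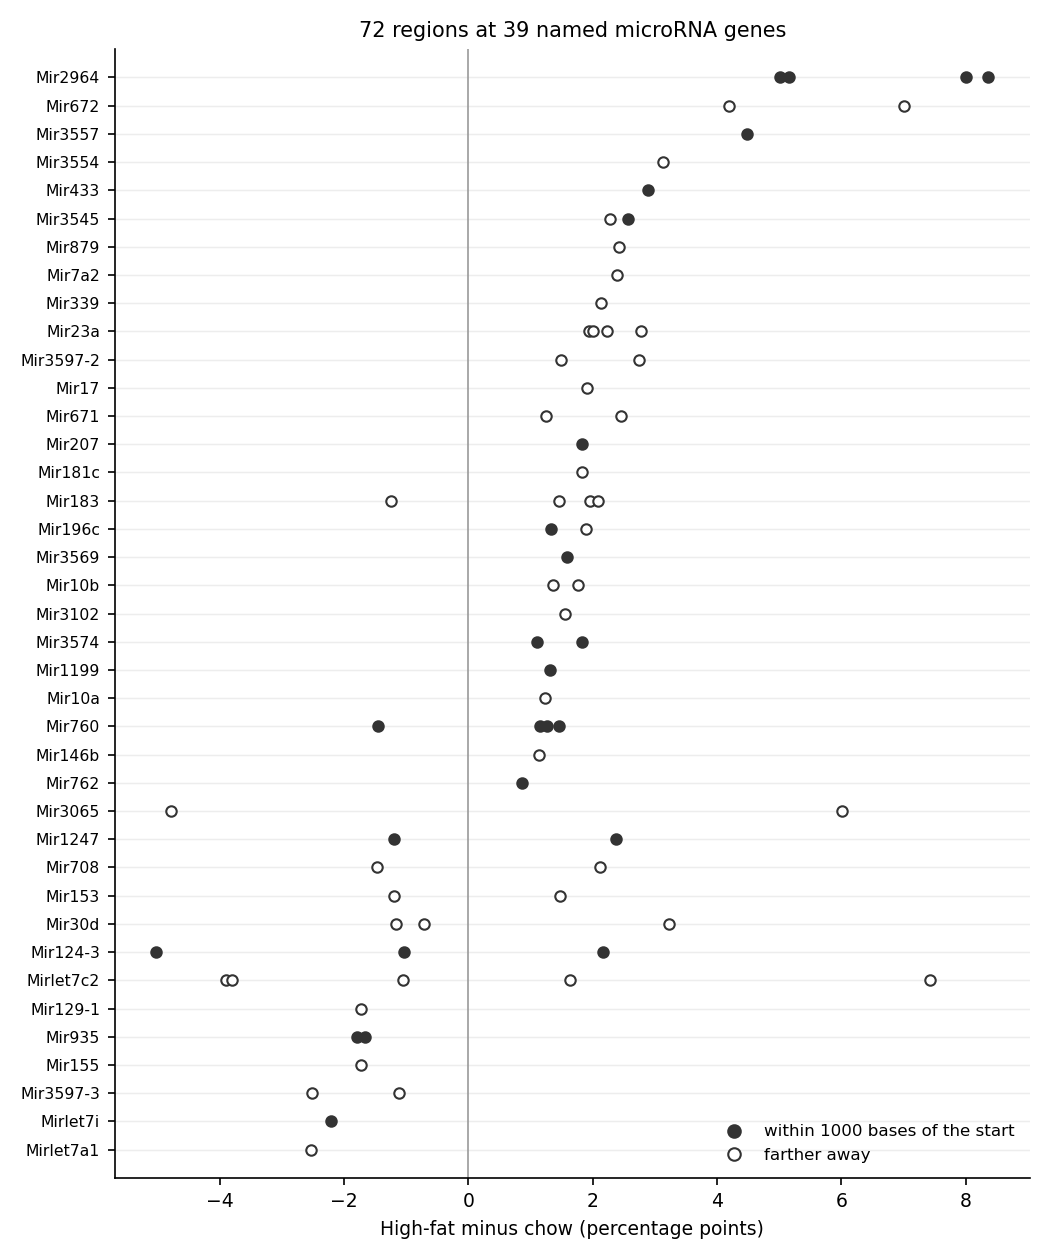
Difference in level (paternal high-fat minus paternal chow, percentage points) at each of the 72 regions of the 39 Mir genes, ordered by the median of each gene. Filled points lie within 1000 bases of the start and open points farther away; Mir2964 stands at the top with 4 regions at 5.02 points and more, and the let-7 genes lie in the lower part, with 1 region of Mirlet7c2 at 7.42 points.

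Neuronal microRNAs listed by name had 7 regions at 4 genes, 3 higher and 4 lower, with a median of -1.03 points. The lowest was at Mir124-3, a gene of miR-124, the most characteristic microRNA of mature neurons. Centred 42 bases before its start, the region (chr3:176405995-176406330) runs from -209 to 125 bases and so spans that start. It had 0, 0.333, 3.98, 2.02 and 0% in paternal high-fat offspring, against 11.1, 12.5, 6.68, 0.714 and 0.435% in paternal chow offspring. The difference of -5.02 points rested on 3 of the paternal chow animals, the other 2 lying among the paternal high-fat ones (limma adjusted p = 0.235; exact permutation p = 0.0952). The next region begins only 3 bases on and went the other way. It had 1.84, 4.0, 3.05, 4.96 and 0% in paternal high-fat offspring, against 1.21, 1.14, 0, 0.325 and 0.337% in paternal chow offspring, a difference of 2.17 points (limma adjusted p = 0.235; exact permutation p = 0.0556). The third region of the gene, 873 bases before the start, differed by -1.03 points. The start of Mir124-3 therefore gave no single direction.

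The other neuronal genes were Mir7a2, Mir153 and Mir129-1. Mir7a2, whose product miR-7 is enriched in hypothalamus and pituitary, was higher by 2.39 points at 5259 bases before its start. Of its paternal high-fat animals 4 lay between 4.99 and 6.36%, but 1 was at 0.347%, and 1 of the paternal chow animals reached 5.59%. Mir153, in an intron of the secretory vesicle gene Ptprn2, had 1 higher and 1 lower region, 95836 and 102213 bases before its start. The only region of Mir129-1 was intergenic, 52400 bases before the microRNA start. It was almost fully methylated, at 94.5 ± 4.01% in paternal high-fat and 96.2 ± 0.836% in paternal chow offspring (SD, n = 5 each).

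The let-7 genes had 7 regions, 2 higher and 5 lower, with a median of -2.21 points, where the median of the whole table was 1.41. let-7 microRNAs time development and are held back by the protein Lin28. Mirlet7i, 694 bases before its start, had 0, 1.46, 0.334, 2.12 and 2.86% in paternal high-fat offspring, against 3.91, 5.07, 3.06, 4.29 and 1.5% in paternal chow offspring. Of the paternal chow animals 4 lay above every paternal high-fat animal (limma adjusted p = 0.235; exact permutation p = 0.0317). Mirlet7a1 had a single region, 8491 bases before its start, that was lower by -2.53 points, of which 1 paternal chow animal at 10.2% made up most.

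Mirlet7c2 had 5 regions, all between 22938 and 59252 bases before its start. The farthest one had 9.74, 13.9, 9.0, 9.49 and 11.8% in paternal high-fat offspring, against 12.7, 13.9, 16.0, 17.1 and 13.7% in paternal chow offspring. Only 1 paternal high-fat animal reached into the range of the paternal chow animals, and the difference was -3.90 points (limma adjusted p = 0.235; exact permutation p = 0.0238). The nearest one was instead higher, at 29.8 ± 10.6% in paternal high-fat and 22.4 ± 6.56% in paternal chow offspring (SD, n = 5 each). Between them lie 3 adjoining regions that were lower by -1.05, higher by 1.64 and lower by -3.81 points. The direction thus alternated within 1 locus, and the last of these rested on 2 paternal chow animals, of which the higher was at 12.5%. In GRCr8, Mirlet7b lies 321 bases from Mirlet7c2 in the same cluster.

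**Figure D5:**
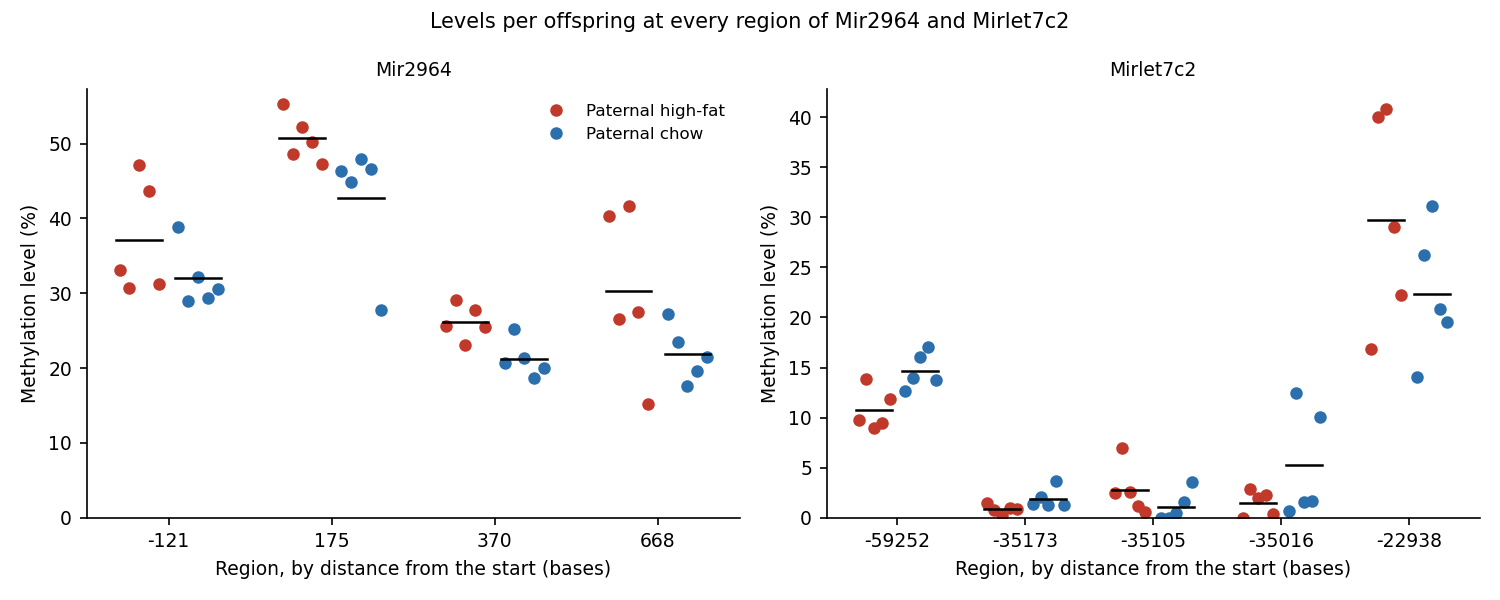
Methylation level (%, axis from 0) per offspring at the 4 regions of Mir2964 and the 5 regions of Mirlet7c2, in order of their distance from the microRNA start in bases, paternal high-fat left and paternal chow right at each; lines are means of 5. All 4 means of Mir2964 are higher after paternal high-fat diet, while 2 of the 5 at Mirlet7c2 are higher and 3 lower.

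Of the microRNAs of the Hox clusters, which target Hox messenger RNAs and mark body position, 3 genes had 5 regions. All 5 were higher, with a median of 1.36 points, beside 75.5% higher and a median of 1.69 points over all microRNA regions. Mir196c, 4834 bases before its start, had 6.96, 3.09, 5.87, 5.50 and 6.23% in paternal high-fat offspring, against 3.97, 2.80, 3.43, 3.20 and 4.76% in paternal chow offspring. Mir10b, in exon 5 of a 6-exon transcript of Hoxd4, had 6.14, 3.81, 3.89, 2.84 and 2.73% in paternal high-fat offspring, against 1.76, 0.952, 1.65, 3.84 and 2.39% in paternal chow offspring. The exact permutation p was 0.0476 at each. Mir10a was higher by 1.23 points. These differences were small, and the groups overlapped at each of the 5.

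Few other lists had regions. Of 48 microRNAs of imprinted loci only Mir433 had one, 293 bases before its start in the Dlk1-Dio3 domain, in which only the maternal copy of the microRNAs is expressed. Levels were 96.6, 97.0, 95.7, 95.9 and 95.1% in paternal high-fat offspring, against 95.4, 88.4, 94.9, 93.6 and 93.5% in paternal chow offspring. The region was almost fully methylated in both groups, and its difference of 2.89 points (exact permutation p = 0.0159) was 1.69 points without the paternal chow animal at 88.4%. Mir17, the first gene of a cluster of growth-promoting microRNAs, was higher by 1.91 points at 2975 bases before its start. Of the microRNAs of vessels, blood and immune cells, Mir146b was higher by 1.14 points and Mir155 lower by -1.74 points, with overlapping groups. The list of muscle microRNAs had 0 regions.

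Mir23a forms a cluster with Mir27a and Mir24-2 and had 4 regions, all higher, by 1.93 to 2.77 points. At 7648 bases before its start the means were 2.87 ± 1.53% in paternal high-fat and 0.941 ± 0.714% in paternal chow offspring (SD, n = 5 each; limma adjusted p = 0.235; exact permutation p = 0.0317). Mir935 had 2 regions, both lower, by -1.79 and -1.67 points; the value of 1 paternal chow animal is missing from the first. Mir672 was the only gene on chromosome X, with 2 regions that were higher by 4.19 and 7.01 points. They lie 2 bases apart, and the smaller unadjusted limma p was 0.0754. Sex of each offspring was not given, so it could not be accounted for on this chromosome. Mir23a, Mir935 and Mir672 were picked after their values were seen.

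Of the 129 genes, 48 had more than 1 region. All regions were higher at 22 of these, all were lower at 3, and 23 had both directions. Among 60 pairs of microRNA regions at most 1000 bases apart, 23 (38.3%) differed in direction, against 42.1% of 2575 such pairs over the table. Beside Mirlet7c2, the genes with most regions were ENSRNOG00000051849 with 2 of 5 higher, ENSRNOG00000041870 with 4 of 5 higher and AABR07044054.1 with 5 of 5 higher. The last lies in Gse1, a protein-coding gene, with 4 of its regions in introns 1 and 2. At 20690 bases from the microRNA start it had 30.2, 28, 26.6, 22.5 and 21.6% in paternal high-fat offspring, against 20.6, 23.6, 21.9, 18.4 and 14.8% in paternal chow offspring (limma adjusted p = 0.235; exact permutation p = 0.0476). Another of them, 1132 bases before the start, was higher by 0.948 points only through 1 paternal high-fat animal at 11.7%, and without that animal its difference was -1.05 points. AABR07050457.1 had 4 of 4 regions higher, by 1.21 to 3.94 points.

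The table places 17 microRNA regions in or at the promoter of 10 protein-coding genes that it names. Of these 17, 14 were higher and 3 lower, beside 75.5% higher over all microRNA regions. In an intron of Gnao1, which codes for the G protein subunit most abundant in neurons, the region nearest to AABR07042837.1 averaged 19.9 ± 5.10% in paternal high-fat and 14.7 ± 1.6% in paternal chow offspring (SD, n = 5 each; exact permutation p = 0.0317). At the promoter of Cdk9, the kinase that releases paused RNA polymerase, 2 regions were higher by 2.38 and 2.49 points. In exon 19 of 47 of the calcium channel gene Cacna1a the difference was -2.86 points. Such regions can be labelled by the nearest microRNA or by the surrounding gene, and which of these they relate to was not tested. The microRNA can be far off, as at Gnao1, where its start is 67091 bases away.

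The genes that make and use microRNAs were looked at beside the microRNA genes. Of 46 listed, 16 had regions in the table, 28 in all. Of these 28, beside 71% higher and a median of 1.41 points over all regions, 22 were higher and 6 lower, with a median of 1.57 points. None passed the adjusted limma test, 6 had an unadjusted p under 0.05, all higher (21.4%, beside 16.4% of all regions), and the groups did not overlap at 3, also higher (10.7%, beside 3.93%). The 4 regions with the smallest p are given. Smad3, a signal transducer of TGF-beta that also binds primary microRNA transcripts, had 0.926, 4.94, 2.52, 6.77 and 2.42% in paternal high-fat offspring, against 0.333, 0, 0.61, 0.321 and 0% in paternal chow offspring, 278 bases before its start (limma adjusted p = 0.235). The other 3 regions of Smad3 differed by 1.58, -1.01 and -1.46 points, so its promoter gave no single direction. Xpo1, an exporter of some microRNA precursors, had an intergenic region 53168 bases from its start with 1.89 ± 0.625% in paternal high-fat and 0.543 ± 0.394% in paternal chow offspring (SD, n = 5 each). Cnot7, a deadenylase recruited to silenced messenger RNAs, had 3.61 ± 1.05% in paternal high-fat and 1.35 ± 0.755% in paternal chow offspring. Tut7, which adds uridines to let-7 precursors, had 4.49 ± 2.45% in paternal high-fat and 1.37 ± 1.54% in paternal chow offspring. All 4 were regions of low level, and at Cnot7 and Tut7 the groups overlapped, with the highest paternal chow animal at 2.55% and 3.87%. The 3 genes listed for dicing, Dicer1 among them, had 0 regions.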

How the data were processed

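Reduced representation bisulfite libraries from 10 samples were processed by the submitters with Trim Galore, Bismark and Bowtie, per the submitters' processing notes; regions were called with metilene on both groups, per the file headers. Build, depth, coverage filter and the settings of metilene were not given in the sources used here. The authors deposited a methylation fraction per region and animal, turned here into percent, and a q-value and p-values per region. Animal columns give the group only, so they served as 5 replicates per group without numbers (1 pair of names per group shares a leading number and may share an animal or litter); 6 values in 5 of the 208 microRNA regions were missing and were left out of means and fits. The differences are paternal high-fat minus paternal chow, in percentage points.

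Fractions of all 8957 regions were fitted with limma 3.58.1 (R 4.3.3; trended empirical Bayes, Benjamini-Hochberg over all regions, 0.05), after a test on simulated data. Exact permutation tests were two-sided. Tables were handled with pandas 2.3.3 in Python 3.11.15 and drawn with matplotlib 3.10.9.

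The regions and lists were chosen with earlier results of these data known. Regions were named by these rules: a deposited q below 0.05 (none met it); groups without overlap, the 8 largest higher and 6 largest lower; within 1000 bases of a start, the 5 largest each way; the 5 genes with most regions (at least 3, ties by smallest p); per list, the 2 with the smallest limma p, and 4 for the microRNA pathway. List members were matched by the number in their name. Alternatives were leaving out each animal, a logit scale (offset 0.01), no variance trend, exact permutation, distance under 10000 bases, autosomes, the authors' means, medians, and averaging columns whose names share a leading number.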

Additional observations from a re-analysis of the deposited data

Results flagged for a closer look

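At the named regions and those of the opposite-strand genes, 130 groups of animals were searched for 1 animal far from the others, whose gap to its nearest neighbour exceeds 0.71 of the range in 5 animals. For normally distributed values this limit flags about 1 in 20 groups by chance. Many levels here lie near the bottom of the scale and the regions were selected, so the rate for them is unknown. The search found 11, 4 in paternal high-fat and 7 in paternal chow offspring, and whether this is an excess cannot be told.

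In paternal high-fat offspring, 1 animal stood high at AABR07044054.1 (11.7% at the region 1132 bases before the start, next 2.59%), at AABR07050457.1 (22.4%, next 18.4%) and at 2 regions of ENSRNOG00000041870 (3.67%, next 0.817%, and 6.91%, next 2.21%). In paternal chow offspring, 1 animal stood high at Mir3554 (2.10%, next 0.509%), at ENSRNOG00000041870 (2.24%, next 0.42%), at ENSRNOG00000051849 (4.89%, next 0.866%) and at Mir183 (3.33%, next 1.80%). It stood low at Mir2964 (27.8%, next 44.9%), at Mir433 (88.4%, next 93.5%) and in the mean over all microRNA regions (7.14%, next 7.90%). The same paternal chow animal was the separate one at Mir3554, at Mir2964 and in the mean.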

How the results depend on the processing

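The number of higher microRNA regions was 157 as reported, by the authors' means and after averaging columns with a shared leading number, and leaving out each animal or chromosome X moved it by 2 at most. Within 10000 bases of the start 94 of 120 regions were higher; the count is smaller because fewer regions enter. The mean difference over regions was 1.65 points, and 1.43 to 1.88 points without 1 animal. No alternative gave an adjusted limma call; the smallest adjusted p was 0.134, on the logit scale. Unadjusted limma p under 0.05 was found at 47 regions, at 33 to 52 without 1 animal, at 59 on the logit scale and at 54 without a variance trend. Groups did not overlap at 12 regions, and at 14 to 24 when 1 animal was left out, as fewer animals make overlap rarer. The direction held at 198 regions whichever animal was left out and changed at 10. Over the 49 named regions, 538 alternative values kept their direction and 1 did not; AABR07044054.1 at 1132 bases before the start was 0.948 points, between -1.05 and 2.17 points without 1 animal, and negative only without 1 paternal high-fat animal. No paired analysis was possible because the columns of levels carry animal names that tie to no numbered sample; a fit with a replicate block was therefore not run. Depth is unknown, so levels of 0 cannot be given a limit.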
